A study of Mus musculus with 12 samples.

Results

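Translation initiation factors were examined in RNA-seq data of mouse bone marrow-derived dendritic cells (BMDCs). Their genes were chosen by name, as all protein-coding genes whose symbol starts with Eif1 to Eif6, without the kinases Eif2ak1 to Eif2ak4 and without genes on the Y chromosome, which gave 68 of 41709 genes in the count tables. The study asked how β2 integrins shape gene expression of dendritic cells. BMDCs were grown for 10 days with GM-CSF from CD18fl/fl mice and from CD18ΔCD11c mice (the conditional knockout termed CD18 CD11c cKO), and were left untreated or received 100 ng/mL of the bacterial endotoxin LPS, for 24 h by the labels and overnight by the study's methods. Each of the 4 groups held 3 libraries, whose numbers (replicates 1 to 3) recur in every group. All mice carried 2 floxed alleles of Itgb2 (exon 3 flanked by loxP sites), the gene of the β2 integrin chain CD18, and the cKO mice additionally carried Cre recombinase driven by the CD11c promoter, so that both genotypes shared the floxed locus. Deletion thus depended on CD11c expression during culture. MHCII+ cells were isolated before lysis. Age and sex of the mice are not given in the sources used here, nor whether libraries of a group came from separate animals. The p-values thus measure the spread between these libraries. In fits that include the replicate number, they measure the spread left once differences between the replicate numbers are taken out.

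Initiation sets the pace of protein synthesis for most mRNAs. In a first step, eIF2 carries the initiator tRNA to the small ribosomal subunit, where eIF1, eIF1A, eIF3 and eIF5 assemble and control the choice of the start codon. In a further step, the eIF4F complex (cap-binding eIF4E, scaffold eIF4G and RNA helicase eIF4A) recruits the mRNA, and eIF5B joins the large subunit. eIF4E-binding proteins compete with eIF4G for eIF4E, and eIF2B recharges eIF2 with GTP. Dendritic cells responding to endotoxin produce large amounts of cytokines and are known to adjust both steps.

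The libraries held 29689149 to 34037178 gene reads, of which the 68 genes took 0.636% to 0.932%. The targeted gene Itgb2 (values in CPM, read counts relative to the library size, here scaled by TMM over all 12 libraries) was at 381.6, 420.0 and 379.0 CPM in unstimulated CD18fl/fl and at 120.4, 163.3 and 189.4 CPM in unstimulated cKO BMDCs. After LPS it was at 167.1, 171.0 and 266.4 CPM against 114.4, 89.7 and 118.6 CPM. In both states the cKO libraries lay below all CD18fl/fl libraries, without reaching 0. All 10 dendritic cell markers examined (MHCII genes, Cd74, Ciita, Itgax, Flt3, Zbtb46, Cd80 and Cd86) were detected in each group, with a summed level (CPM by library size, as for all other markers) between 18228 and 38495. The MHCII genes and Cd74 made most of this sum. Markers of other cells differed between libraries. The 10 neutrophil markers summed to 1594 CPM in replicate 1 of unstimulated CD18fl/fl and to between 13.6 and 183 in the other unstimulated libraries. The 8 macrophage markers summed to 851 to 1175 in LPS-treated cKO and to 1395 to 2267 in LPS-treated CD18fl/fl libraries. In unstimulated cells these sums overlapped (1785 to 2401 against 2117 to 2673). Single macrophage markers differed in both states. Adgre1 was lower in all cKO libraries, at 205 to 382 against 491 to 618 CPM unstimulated and 210 to 305 against 555 to 641 CPM after LPS. C1qb was higher in all unstimulated cKO libraries (519 to 821 against 459 to 499 CPM). Csf1r was lower in all cKO libraries after LPS and overlapped before. After LPS, C1qb, C1qc and Mertk were highest in cKO replicate 3 (126, 86.9 and 95.2 against at most 70.7, 68.0 and 66.0 CPM in CD18fl/fl). The 4 erythroid markers reached at most 3.93 CPM. The 6 T cell markers summed to 4.12 to 37.7 CPM in unstimulated and to at most 3.94 CPM in LPS-treated libraries. Replicate 3 stood apart in all groups. In every group, Flt3, H2-Aa and H2-Eb1 were lower in it than in replicates 1 and 2, and Itgax and Cd80 were higher. Flt3 was at 0.213 to 2.83 against 7.34 to 44.7 CPM, and Itgax after LPS at 329 and 267 against 27.1 to 36.7 CPM. In unstimulated cells, the LPS response markers of replicate 3 (9 cytokine and activation genes) summed to 630 and 478 against 1658 to 3183 in replicates 1 and 2, and its B cell markers to 1.28 and 0.681 against 37.3 to 130.6. The LPS response sum was carried by Ccr7 (2734 and 2854 against 303 CPM in replicate 3 of CD18fl/fl). Il12b, Il1b and Cd40 were also lower in replicate 3, whereas Tnf, Socs3 (28.5 and 30.9 against 183.6 CPM), Acod1, Il6 and Nos2 were higher in it, so that these markers gave no common direction. Its 4 mast cell and basophil markers summed to 18.1 to 124.6 CPM, against 0.327 to 7.86 CPM in replicates 1 and 2 of all groups. Cpa3 alone made nearly all of this sum, at 17.9 to 123 CPM in replicate 3. Mcpt8, Ms4a2 and Fcer1a were at most 1.64 CPM in any library, without a common direction. The part of these differences in the results below was not tested. Counts of called factors are given for a model that ignores the replicate number and for one that includes it as a block (the block, in the following). Values of single genes are with the block where nothing else is said, and between the genotypes no gene was called without it (edgeR on the 6 libraries compared, after the filter on low counts).

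Most initiation factors were abundant. Levels of different genes were compared per length, in TPM (the deposited length-normalised values). 40 of the 68 genes exceeded a mean of 10 TPM over the 12 libraries, and 16 exceeded 100 TPM. The highest means belonged to Eif3h (646 TPM), the helicase gene Eif4a1 (573 TPM), the start codon selection factor gene Eif1 (506 TPM), Eif3e (488 TPM) and Eif4a2 (419 TPM). They were followed by Eif3m (396 TPM), Eif5a (316 TPM), Eif3i (282 TPM), Eif3k (270 TPM) and Eif2s2 (149 TPM). Thus 5 of the 10 most abundant genes encode subunits of eIF3, the large scaffold on the small ribosomal subunit. Neighbours in this order overlapped between libraries. In unstimulated CD18fl/fl BMDCs, for instance, Eif4a1 was at 796 ± 203 TPM (SD, n = 3) and Eif3h at 766 ± 20.4 TPM (SD, n = 3).

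Some paralogs differed widely in level. Of the eIF4G scaffolds, Eif4g2 (the form lacking the eIF4E-binding site) was at a mean of 69.2 TPM, Eif4g1 at 17.4 TPM and Eif4g3 at 3.33 TPM. Of the cap-binding proteins, Eif4e was at 40.8 TPM, Eif4e2 (a cap-binding protein that does not bind eIF4G) at 38.2 TPM and Eif4e3 at 10.7 TPM, while Eif4e1b, known from oocytes, was listed at 0 reads in all libraries. Of the eIF5A genes, Eif5a2 (2.61 TPM) stayed far below Eif5a. Of the eIF4E-binding proteins, Eif4ebp1 (33.1 TPM) exceeded Eif4ebp2 (9.21 TPM), and Eif4ebp3 had at most 25 reads in a library, of which 6 reads in all were unique. The exon junction factor gene Eif4a3 was at 93.1 TPM, whereas its 2 relatives Eif4a3l1 and Eif4a3l2 had 1 and 0 reads over all libraries.

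The 16 genes named Eif1ad with a number lie on chromosome 12, and most had few or no reads. 7 of them had no read in any library, and Eif1ad17, Eif1ad3, Eif1ad4, Eif1ad6 and Eif1ad15 had at most 12 reads in a library. Eif1ad2 reached 45 reads in 1 cKO library. A count of 0 allows up to 3 reads, which is 0.0881 to 0.101 CPM by library size in these libraries. The lowest mean levels above 0 belonged to Eif4a3l1 (0.003 TPM), Eif1ad17 (0.01 TPM), Eif1ad3 (0.017 TPM), Eif1ad4 (0.019 TPM) and Eif1ad6 (0.04 TPM). Eif1ad8 reached 98 reads and Eif1ad10 87 reads in a library. The most reads fell on Eif1ad7 (ENSMUSG00000079029, chromosome 12, 88237410 to 88241270), described with the response to LPS below. Its coding sequence of 432 bases is 94.2% identical to that of Eif1a and 84.7% to that of Eif1ax, the X-linked gene of eIF1A, but only 49.0% to that of Eif1ad itself (transcripts of the GRCm39 annotation). Reads can thus be shared, and 65.6% of the reads on Eif1ad7 were unique to it. The first 60 bases of the coding sequences of Eif1ax and Eif1ad7 are shown as an example of these differences. The closer Eif1a, with 25 differences over the coding sequence against 66 for Eif1ax, is not shown, and reads of Eif1ad7 are harder to tell from it than this window lets see. Capitals mark the 6 positions at which they differ.
Eif1ax: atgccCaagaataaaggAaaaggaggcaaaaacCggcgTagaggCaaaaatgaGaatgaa
Eif1ad7: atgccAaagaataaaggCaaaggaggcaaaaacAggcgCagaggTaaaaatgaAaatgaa

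Of the 68 genes, 52 passed the filter on low counts in at least 1 comparison and 48 in all 4. The remainder had few or no reads. Passing may rest on the group in which a gene is high, which applies to Eif1ad7, Eif1ad8, Eif1ad10 and Eif4ebp3.

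In unstimulated BMDCs, the mRNAs of Eif2s1, Eif2s2, Eif4e and Eif4e2 were higher in cKO cells and those of Eif3a, Eif3b, Eif3c and Eif4g1 were lower once the replicate block was included. Without the block, none of the 49 factors tested was past an adjusted p of 0.05 (edgeR, 0% of all 12876 genes called), although 12 were higher and 6 lower at an unadjusted p under 0.05, where this held for 10.8% and 5.93% of all genes. DESeq2 without a block called 6 higher and 0 lower (2.61% and 0.25% of all genes). With the block, 15 factors (30.6%) were higher and 6 (12.2%) lower in cKO BMDCs, against 12.1% and 8.16% of all genes. The direction of this split rested on the scaling. Scaling by library size alone moved the median over all genes (log2 fold change) from -0.07 to -0.46, and with it the block called 8 factors higher and 16 lower, against 5.44% and 30.1% of all genes. The called genes named below kept their direction under that scaling. Replicates 1 and 2 alone gave 12 higher and 5 lower factors without a block (7.91% and 2.67% of all genes) and 18 and 8 with it (14.9% and 11.8%). DESeq2 with the block gave 17 and 9 (9.47% and 6.69%). 13 factors lay higher and 6 lower in all cKO than in all CD18fl/fl libraries, as did 13.3% and 11% of all genes.

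The strongest difference concerned eIF2, the carrier of the initiator tRNA. Eif2s1 (ENSMUSG00000021116, chromosome 12, 78908593 to 78933784), which encodes the α subunit that stress kinases phosphorylate, was at 105.3, 101.0 and 151.9 CPM in CD18fl/fl and at 237.0, 223.2 and 290.3 CPM in cKO libraries. All cKO libraries lay above all CD18fl/fl libraries. The log2 fold change was 1.13 (SE 0.23, adjusted p = 0.102) without and 1.14 (SE 0.13, adjusted p = 0.00318) with the block. The β subunit gene Eif2s2 was at 149.4, 137.3 and 276.9 CPM against 263.0, 239.4 and 422.6 CPM, so that the groups overlapped while each cKO library exceeded its same-numbered partner (log2 fold change 0.80, SE 0.13, adjusted p = 0.00781 with the block and 0.319 without). Without the block, its value of 0.78 moved to 0.49 without replicate 3 of the cKO group and to 1.14 without that of CD18fl/fl. Eif2a, an alternative tRNA delivery factor, was higher with the block by a log2 fold change of 0.76 (adjusted p = 0.0101, and 0.14 without). Eif2s3x, the γ subunit, had a log2 fold change of 0.41 (adjusted p = 0.0829), and Eif2d of 0.28. None of the 5 genes of eIF2B, the exchange factor of eIF2, was called, with log2 fold changes between -0.22 and 0.37.

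Factors of start codon selection were mostly higher as well. Eif1ax was at 115.1, 91.1 and 132.1 CPM in CD18fl/fl and at 188.9, 184.5 and 207.7 CPM in cKO libraries, with no overlap (log2 fold change 0.85, SE 0.14, adjusted p = 0.00801 with and 0.138 without the block). Its autosomal relative Eif1a (log2 fold change 0.54, adjusted p = 0.0404), Eif1b (0.85, adjusted p = 0.00708), a relative of Eif1, and Eif1ad (0.73, adjusted p = 0.0134), whose product holds an eIF1A-like domain, were also called with the block. Eif1 itself was at 336.4 to 499.1 CPM against 321.4 to 627.3 CPM and was not called. The subunit joining factor Eif5b went the other way, from 28.1, 31.9 and 54.8 CPM to 15.1, 20.8 and 33.9 CPM (log2 fold change -0.68, SE 0.15, adjusted p = 0.0208 with and 0.424 without the block). Its groups overlapped, and without the block its value of -0.65 moved to -0.33 without replicate 3 of CD18fl/fl and to -1.02 without that of the cKO group.

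The eIF3 genes split. Of 14 tested, 4 were higher and 4 lower with the block. Eif3m (chromosome 2, 104830001 to 104847425) was at 226.9, 183.7 and 212.2 CPM in CD18fl/fl and at 460.3, 420.4 and 373.7 CPM in cKO libraries (log2 fold change 1.07, SE 0.14, adjusted p = 0.00383 with and 0.0887 without the block). Eif3e was at 373.4, 317.1 and 377.4 CPM against 684.0, 634.6 and 598.5 CPM (log2 fold change 0.90, SE 0.14, adjusted p = 0.00634 with and 0.102 without). For both genes the genotypes did not overlap. Eif3k (log2 fold change 0.72, adjusted p = 0.0143) and Eif3i (0.64, adjusted p = 0.0224) were called with the block too. Among the lower genes, Eif3c, a core subunit (chromosome 7, 126145627 to 126165583), was at 101.5, 116.6 and 126.9 CPM in CD18fl/fl and at 62.5, 57.5 and 77.2 CPM in cKO libraries, again with no overlap (log2 fold change -0.76, SE 0.14, adjusted p = 0.0127 with and 0.159 without). The core subunit genes Eif3a (log2 fold change -0.74, adjusted p = 0.0137) and Eif3b (-0.77, adjusted p = 0.0217) shared this direction with the block. Eif3j1 (-0.84, adjusted p = 0.0208) shares reads with Eif3j2. The transcript of Eif3j2 is 99.4% identical to a stretch of the Eif3j1 transcript, and only 3.6% of the reads on Eif3j2 were unique. These unique reads of Eif3j2 were 0, 4 and 0 in CD18fl/fl and 89, 129 and 0 in cKO libraries. On Eif3j1, 55.0% were unique, at 351, 489 and 544 reads in CD18fl/fl and 155, 186 and 321 in cKO libraries. With the reads of both genes summed, most of them on Eif3j2, the log2 fold change was -0.04 (SE 0.14, adjusted p = 0.875 with the block).

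**Figure D1:**
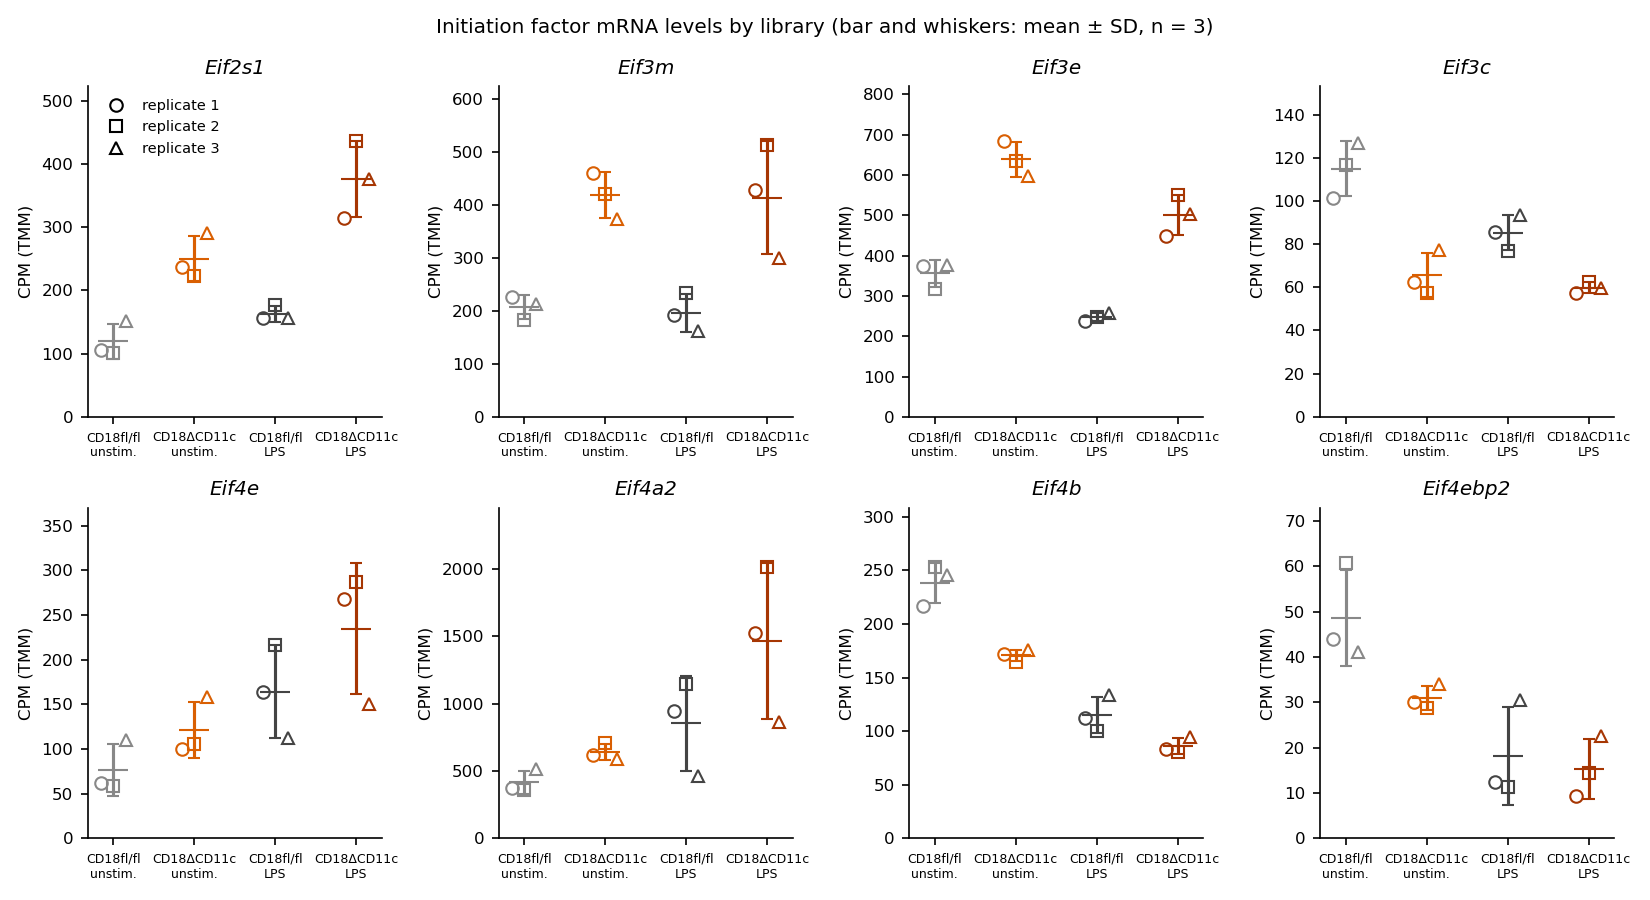
TMM-scaled CPM of 8 initiation factor genes in each of the 12 libraries, by group. Symbols mark the replicate number, and bars with whiskers the mean ± SD (n = 3). Eif2s1, Eif3m and Eif3e lie higher and Eif3c lower in all cKO libraries of a state than in the CD18fl/fl libraries of that state, whereas replicate 3 separates from replicates 1 and 2 for Eif4e, Eif4a2 and Eif4ebp2 after LPS.

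Within the cap-binding complex, with the block, Eif4e, Eif4e2 and the helicase Eif4a2 were higher and the scaffold Eif4g1 was lower. Eif4e (chromosome 3, 138231940 to 138265457) was at 61.7, 58.4 and 110.0 CPM in CD18fl/fl and at 100.4, 106.1 and 157.7 CPM in cKO libraries. The groups overlapped because replicate 3 was the highest in both (log2 fold change 0.75, SE 0.14, adjusted p = 0.0119 with and 0.306 without the block). Eif4e2 was at 119.0, 101.0 and 90.1 CPM against 230.9, 182.4 and 146.3 CPM, without overlap (log2 fold change 0.89, SE 0.13, adjusted p = 0.00581 with and 0.16 without). Eif4e3 had a log2 fold change of 0.00 (SE 0.20). Of the helicases, Eif4a2 went from 375.5, 361.2 and 516.4 CPM to 621.2, 708.0 and 591.4 CPM (log2 fold change 0.69, SE 0.17, adjusted p = 0.0305 with and 0.205 without the block), while Eif4a1, at 550.9 to 882.0 CPM against 642.2 to 800.1 CPM, was not called. Eif4g1 was at 71.0, 98.5 and 102.0 CPM in CD18fl/fl and at 43.3, 46.7 and 73.0 CPM in cKO libraries (log2 fold change -0.70, SE 0.16, adjusted p = 0.0248 with and 0.278 without). Eif4g2 (log2 fold change -0.43, adjusted p = 0.0556) and Eif4g3 (-0.37) were not called.

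Of the eIF4E-binding proteins, which compete with eIF4G, none was called. Eif4ebp2 was at 43.9, 60.8 and 41.2 CPM in CD18fl/fl and at 30.1, 28.8 and 34.0 CPM in cKO libraries, without overlap (log2 fold change -0.58, SE 0.18, adjusted p = 0.0615 with and 0.25 without the block). Eif4ebp1 had a log2 fold change of -0.48 (adjusted p = 0.136) and Eif4enif1, the eIF4E transporter, of -0.49 (adjusted p = 0.0833). Eif5a, Eif5a2 and Eif6, whose product keeps ribosomal subunits apart, had log2 fold changes between -0.24 and 0.25, none of them called. Eif1ad8 was called higher with the block (log2 fold change 3.31, SE 0.88, adjusted p = 0.036) on 28, 6 and 0 against 98, 80 and 6 reads. It passed the filter on 3 libraries, 2 of them cKO, so that its difference is a description, and 14 factors were higher without it. Without the block, its log2 fold change of 2.79 moved to 2.21 without replicate 3 and to 4.77 without replicate 1 of CD18fl/fl.

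**Figure D2:**
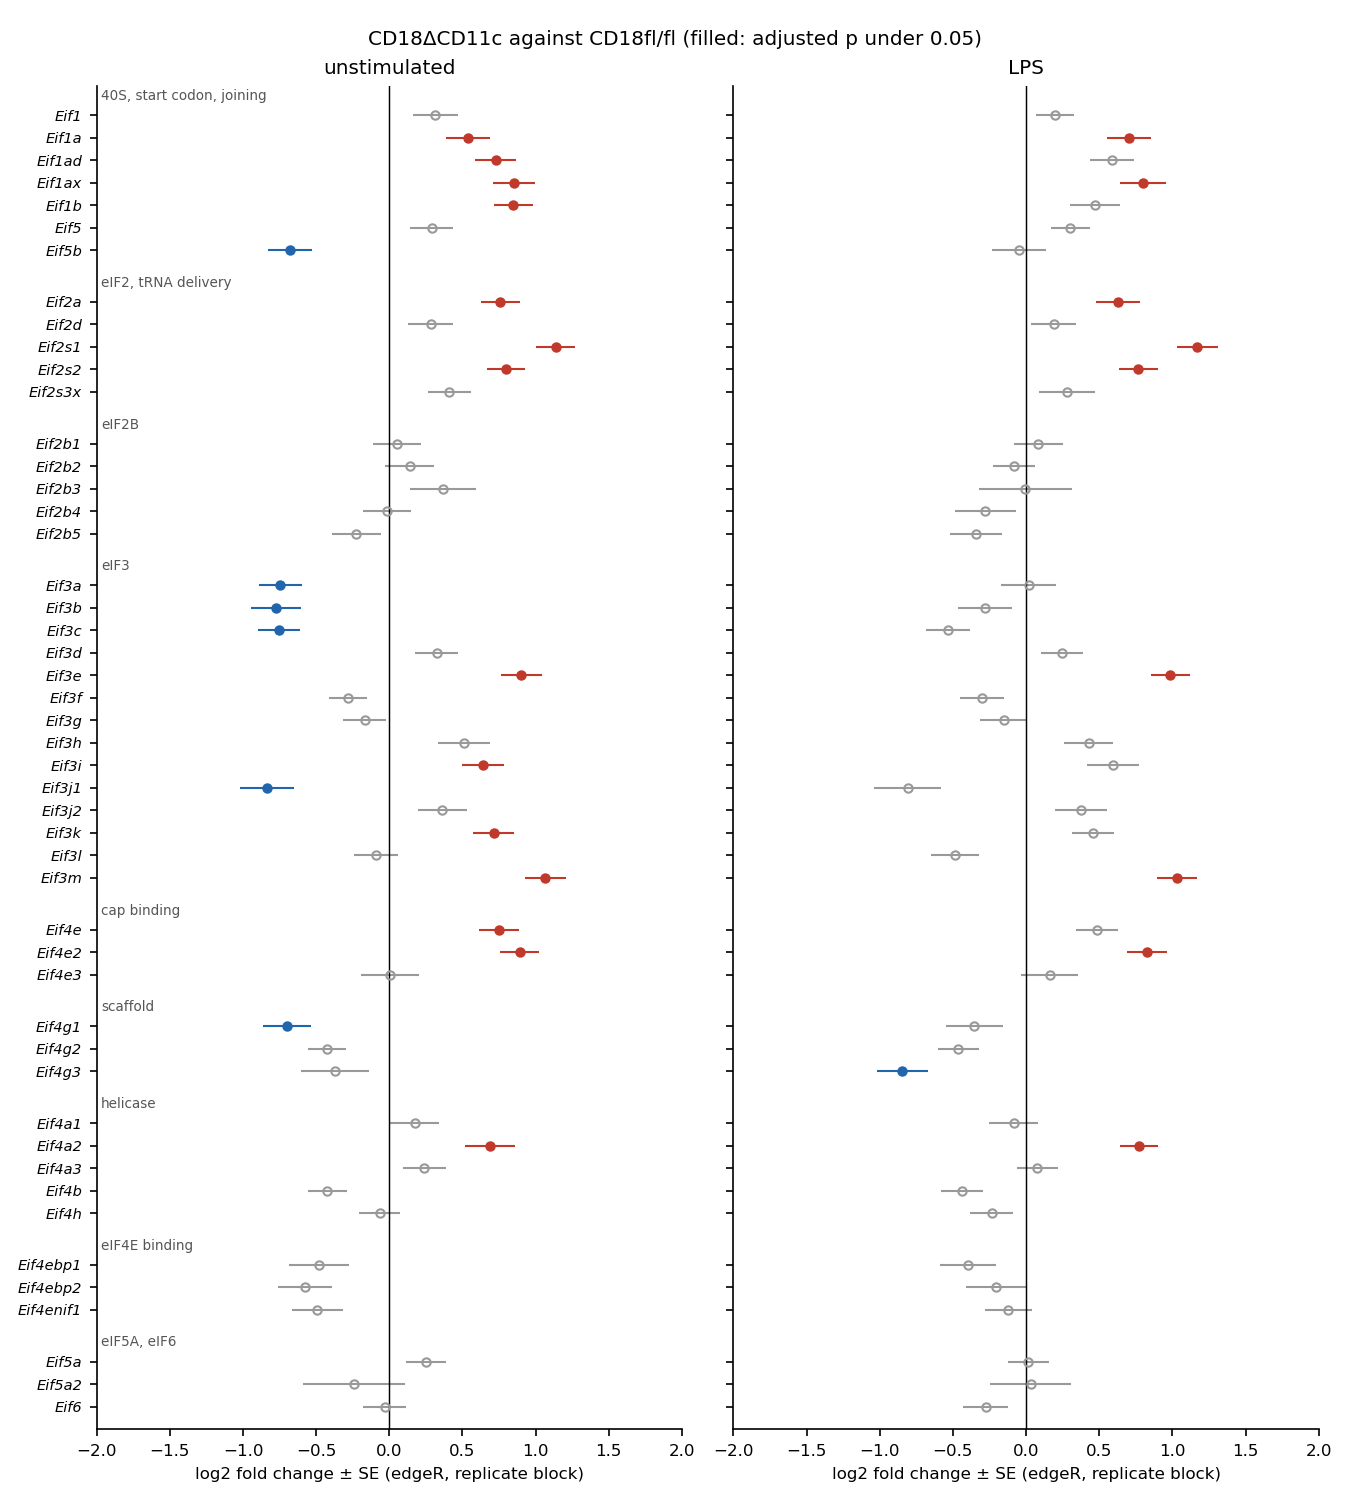
Log2 fold changes (± SE) of the initiation factors between cKO and CD18fl/fl BMDCs with the replicate block, unstimulated (left) and after LPS (right), grouped by role. Filled points have an adjusted p under 0.05, red for higher and blue for lower in cKO. The numbered Eif1ad genes and Eif4ebp3 are left out. Eif2s1, Eif3m and Eif3e lie near 1 in both panels.

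After LPS, the genotype difference had the same leading genes. Without the block, none of 52 factors was called (edgeR, 0% of all 12441 genes), with 10 higher and 1 lower at an unadjusted p under 0.05 (6.19% and 3.55% of all genes), and DESeq2 called 2 higher and 0 lower (0.74% and 0.0472%). With the block, 10 factors (19.2%) were higher and 1 (1.92%) lower, against 6.98% and 3.16% of all genes. By library size with the block, 8 were higher and 10 lower, against 4.74% and 16.5% of all genes, and the median of all genes moved from -0.09 to -0.34. From replicates 1 and 2 alone, 3 factors were called, all higher, namely Eif2s1, Eif3e and Eif3m (3.24% of all genes higher and 0.977% lower). With the block, these replicates gave 9 higher and 1 lower (7.13% and 4.17%), and DESeq2 on all replicates 15 and 3 (6.57% and 3.24%). The groups did not overlap for 14 higher and 3 lower factors, as for 9.18% and 8.83% of all genes.

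Eif2s1 was at 156.1, 177.6 and 155.7 CPM in CD18fl/fl and at 315.4, 436.1 and 376.5 CPM in cKO libraries (log2 fold change 1.17, SE 0.14, adjusted p = 0.00708 with and 0.286 without the block). The lowest cKO library thus had more than any CD18fl/fl library. Eif3m was at 192.5, 233.6 and 161.8 CPM against 428.3, 512.6 and 300.7 CPM (1.03, SE 0.14, adjusted p = 0.00893 with and 0.384 without). Eif3e was at 236.8, 248.3 and 257.6 CPM against 448.7, 549.8 and 504.3 CPM (0.99, SE 0.13, adjusted p = 0.00931 with and 0.325 without). Called with the block were also Eif4e2 (0.83, adjusted p = 0.0156), Eif4a2 (0.77, adjusted p = 0.0162), Eif2s2 (0.77, adjusted p = 0.0179), Eif1ax (0.80, adjusted p = 0.0252), Eif1a (0.70, adjusted p = 0.0316), Eif2a (0.63, adjusted p = 0.0443) and Eif1ad7. Eif4e had a log2 fold change of 0.48 (adjusted p = 0.0748). The lower gene was Eif4g3, at 14.9, 12.3 and 50.7 CPM in CD18fl/fl and 7.2, 8.6 and 27.5 CPM in cKO libraries, where replicate 3 was the highest of each group (log2 fold change -0.85, SE 0.18, adjusted p = 0.0285 with and 0.759 without). Without the block, its value was -1.78 without replicate 3 of the cKO group and 0.069 without that of CD18fl/fl. That of Eif4a2 moved from 0.75 to 0.43 without replicate 3 of CD18fl/fl. Eif3c had a log2 fold change of -0.54 (adjusted p = 0.0663) and lay lower in all cKO libraries, Eif3b of -0.28 and Eif3a of 0.02. Eif3j1 had a log2 fold change of -0.81 (adjusted p = 0.0664), and with the reads of Eif3j2 added of -0.02 (adjusted p = 0.949). The unique reads of Eif3j1 were 297, 186 and 418 in CD18fl/fl and 110, 92 and 262 in cKO libraries. Those of Eif3j2 were 0, 0 and 0 in CD18fl/fl and 104, 59 and 0 in cKO libraries.

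The lower factors were long. In unstimulated cells, the 15 higher factors had a median exon length of 2556 bases and the 6 lower ones of 5269 bases, against 2487 bases for the 28 not called. After LPS, the 10 higher factors had 3169.5 bases, against 2514 for those not called. An offset for each library's dependence of counts on exon length was added to the block. It left 12 factors higher and 3 lower in unstimulated cells (7.7% and 3.9% of all genes). Eif2s1 (log2 fold change 1.23, adjusted p = 0.00676), Eif4e2 (1.21, adjusted p = 0.00707), Eif1ax (1.08, adjusted p = 0.0092), Eif4e (1.03, adjusted p = 0.0102), Eif3m (0.63, adjusted p = 0.0296) and Eif3e (0.55, adjusted p = 0.0445) stayed past the threshold. The short genes Eif1b (0.34, adjusted p = 0.152), Eif3k (0.24, adjusted p = 0.326) and Eif3i (0.17, adjusted p = 0.514) did not. Of the lower genes, Eif3b (-0.74, adjusted p = 0.0284) and Eif3c (-0.65, adjusted p = 0.0294) stayed, whereas Eif3a (-0.52, adjusted p = 0.0552), Eif3j1 (-0.59, adjusted p = 0.0586), Eif5b (-0.36, adjusted p = 0.155) and Eif4g1 (-0.40, adjusted p = 0.126) did not. Eif3g, one of the shortest, was added as a lower gene (-0.69, adjusted p = 0.0291), with -0.17 before the offset. After LPS, the offset left 10 factors higher, with Eif4e (0.67, adjusted p = 0.0496) in place of Eif2a, and 0 lower (4.84% and 1.78% of all genes).

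**Figure D3:**
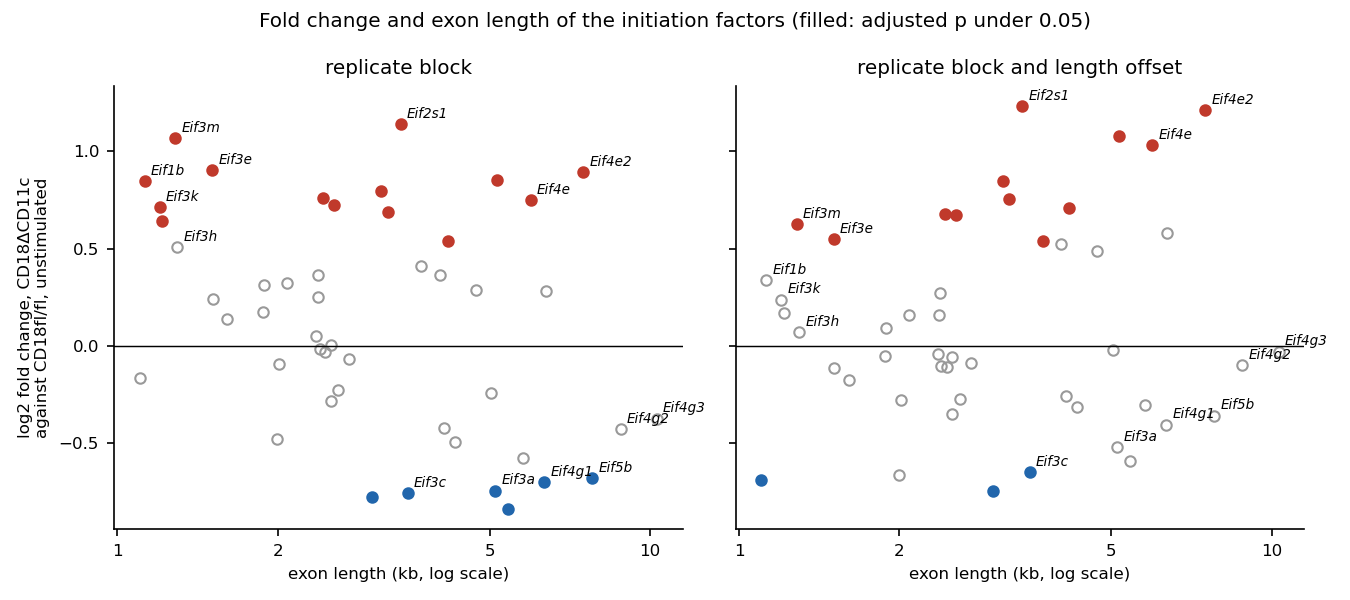
Log2 fold change between cKO and CD18fl/fl BMDCs (unstimulated) against exon length in kilobases on a log scale, for each initiation factor tested except Eif1ad8, with the replicate block alone (left) and with an added length offset (right). Filled points have an adjusted p under 0.05. The lower factors on the left are all longer than 3 kb, and with the offset Eif3a, Eif4g1 and Eif5b are no longer called.

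In response to LPS, the helicase cofactor Eif4b fell in both genotypes with the block. In cKO cells, Eif3f, Eif3k, Eif3l, Eif4ebp2 and Eif2b3 fell as well, and Eif4a2 and Eif1ax rose. Eif1ad7, a gene of few reads, was called higher in both genotypes with the block. It passed the filter only through the LPS-treated libraries, so that its difference is a description. In CD18fl/fl cells, 1 of 50 factors was called higher and 0 lower without the block (edgeR, 2.06% and 1.83% of all 12744 genes), 6 and 6 being past an unadjusted p of 0.05 (12.4% and 11.4%). With the block, 1 (2%) was higher and 1 (2%) lower, against 6.33% and 6.43% of all genes. The higher factor was Eif1ad7 with and without the block. In cKO cells, 0 of 51 factors were called higher and 1 lower without the block (2.23% and 1.76% of all 12687 genes), 4 and 7 at an unadjusted p under 0.05 (10.7% and 10.5%). With the block, 3 (5.88%) were higher and 6 (11.8%) lower, against 10.2% and 9.93% of all genes. Eif1ad7 was 1 of these 3 higher factors. DESeq2 without a block called 2 higher and 3 lower factors in each genotype (5.12% and 4.36% of all genes in CD18fl/fl, 4.04% and 3.94% in cKO cells), and with it 5 and 7 (8.44% and 8.1%) and 6 and 7 (9.03% and 8.57%). In CD18fl/fl cells, the library replicate 3 of the LPS-treated group decided the count. Without it, 8 factors were called higher and 8 lower (1613 and 1655 of 13206 genes), whereas without replicate 3 of the unstimulated group 0 were (252 and 254 of 13310 genes). From replicates 1 and 2 alone 14 higher and 13 lower, against 23.2% and 24.3% of all genes (with the block the same counts, against 24% and 25.3%). In cKO cells, replicates 1 and 2 alone gave 4 and 4 (7.93% and 7.99%), and with the block 9 and 9 (15.7% and 15.8%). The length offset with the block left the counts at 1 and 1 (7.45% and 6.31%) in CD18fl/fl and 3 and 6 (11.9% and 8.97%) in cKO cells. Groups did not overlap for 8 higher and 13 lower factors in CD18fl/fl (13.8% and 15.6% of all genes) and for 8 and 10 in cKO cells (14.1% and 14.2%). By library size with the block, 1 factor was higher and 8 lower in CD18fl/fl cells (3.74% and 8.98%), and 2 higher and 16 lower in cKO cells (6.97% and 14.7%), with the median of all genes at -0.36 and -0.23.

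Eif4b (ENSMUSG00000058655, chromosome 15, 101982208 to 102005608), whose product stimulates the helicase eIF4A, was at 217.1, 252.7 and 245.4 CPM in unstimulated and 112.3, 100.1 and 133.3 CPM in LPS-treated CD18fl/fl cells. The cKO libraries had 171.7, 164.9 and 175.6 CPM before and 83.3, 80.6 and 94.5 CPM after LPS. All LPS-treated libraries lay below all unstimulated libraries of their genotype. The log2 fold change was -1.05 (SE 0.22, adjusted p = 0.0333 with and 0.0603 without the block) in CD18fl/fl and -1.04 (SE 0.17, adjusted p = 0.00848 with and 0.0483 without) in cKO cells. Without the block, the call in cKO cells was lost when any 1 of the 5 libraries other than replicate 3 of the LPS-treated group was left out (adjusted p between 0.0818 and 0.207).

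Of the 14 eIF3 genes, 13 had a negative log2 fold change in CD18fl/fl cells without the block, with a median of -0.46, and 14 in cKO cells, with a median of -0.35. Over all genes, the medians were -0.02 and -0.01, and 49.2% and 49.1% of values were positive. Only 3 of them passed the test, in cKO cells with the block. Eif3l fell from 96.4, 60.9 and 66.2 CPM to 44.1, 26.8 and 33.2 CPM (log2 fold change -1.15, SE 0.17, adjusted p = 0.00648 with and 0.0745 without). Eif3f fell from 174.7, 197.3 and 159.3 CPM to 87.8, 91.8 and 110.4 CPM (-0.92, SE 0.20, adjusted p = 0.0214 with and 0.0797 without), and Eif3k had a log2 fold change of -0.88 (adjusted p = 0.0251). In CD18fl/fl cells, the values of these genes were -0.78 for Eif3l (adjusted p = 0.0548), -0.94 for Eif3f (adjusted p = 0.0574) and -0.65 for Eif3k (adjusted p = 0.088) with the block. All LPS-treated libraries lay below the unstimulated ones for each of these genes in both genotypes.

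**Figure D4:**
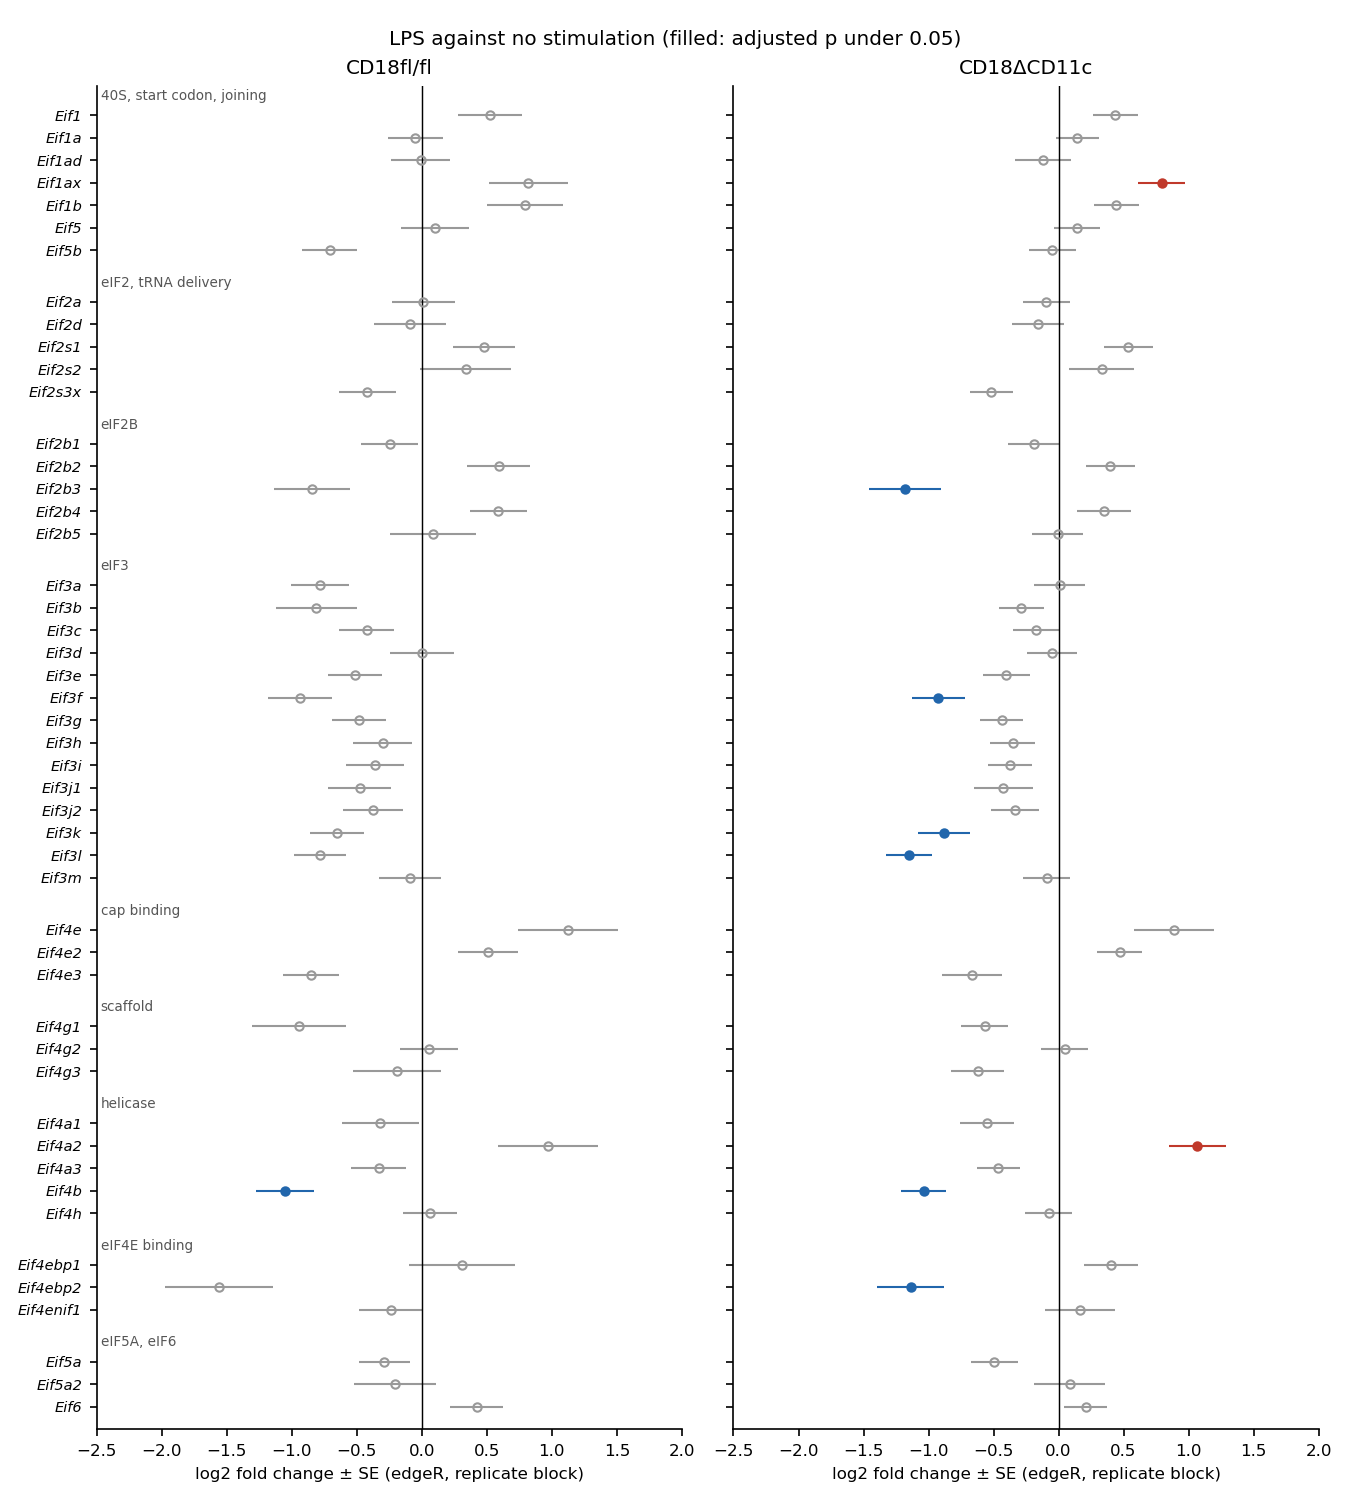
Log2 fold changes (± SE) of the initiation factors between LPS-treated and unstimulated BMDCs with the replicate block, in CD18fl/fl (left) and cKO cells (right), grouped by role. Filled points have an adjusted p under 0.05, red for higher and blue for lower after LPS. Eif4b lies near -1 in both panels, and all eIF3 points lie at or below about 0.

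Eif4ebp2, a repressor of eIF4E, was at 43.9, 60.8 and 41.2 CPM in unstimulated and 12.5, 11.3 and 30.6 CPM in LPS-treated CD18fl/fl cells. Replicate 3 differed least, with a log2 difference of -0.42 against -1.78 and -2.38 in replicates 1 and 2 (all replicates, log2 fold change -1.56, SE 0.41, adjusted p = 0.0588 with and 0.114 without the block). In cKO cells it was at 30.1, 28.8 and 34.0 CPM and at 9.4, 14.3 and 22.5 CPM, respectively (log2 fold change -1.14, SE 0.26, adjusted p = 0.0247 with and 0.161 without). Eif4ebp1 had log2 fold changes of 0.31 and 0.40, neither called.

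Eif4e, the cap-binding protein itself, was at 61.7, 58.4 and 110.0 CPM before and 164.0, 216.2 and 112.9 CPM after LPS in CD18fl/fl cells. In cKO cells, it was at 100.4, 106.1 and 157.7 CPM before and 267.7, 286.5 and 150.4 CPM after LPS. The log2 difference was 1.40 and 1.88 for replicates 1 and 2 of CD18fl/fl and 1.41 and 1.43 for those of cKO cells, but 0.04 and -0.07 for replicate 3. With all replicates it was not called, with log2 fold changes of 1.13 (SE 0.39, adjusted p = 0.104) and 0.89 (SE 0.31, adjusted p = 0.0886) with the block. From replicates 1 and 2 alone, the adjusted p (edgeR) was 2.08e-05 in CD18fl/fl and 0.00882 in cKO cells. Replicate 3 was left out after its values had been seen, so that these p-values are no separate evidence of a rise. Without the block, these replicates called 23.2% of all genes higher and 24.3% lower in CD18fl/fl cells, and 7.93% and 7.99% in cKO cells.

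A like split was seen for the helicase gene Eif4a2. In CD18fl/fl cells it was at 375.5, 361.2 and 516.4 CPM before and 947.9, 1148.9 and 464.5 CPM after LPS, so that replicate 3 was not higher after LPS. In cKO cells, it was at 621.2, 708.0 and 591.4 CPM before and 1521.0, 2018.0 and 860.3 CPM after LPS, with no overlap. The log2 fold change was 0.97 (SE 0.38, adjusted p = 0.143) in CD18fl/fl and 1.07 (SE 0.22, adjusted p = 0.0172 with and 0.102 without the block) in cKO cells. Eif1ax rose in cKO cells from 188.9, 184.5 and 207.7 CPM to 380.1, 360.4 and 303.5 CPM (log2 fold change 0.79, SE 0.18, adjusted p = 0.0238 with and 0.0877 without) and had a log2 fold change of 0.82 (SE 0.30, adjusted p = 0.122) in CD18fl/fl cells. Eif1b had 0.79 (adjusted p = 0.123) in CD18fl/fl and 0.44 (adjusted p = 0.123) in cKO cells. Eif2b3, the γ subunit of eIF2B, was lower in cKO cells with the block (-1.18, SE 0.28, adjusted p = 0.0274 with and 0.157 without) at 3.8, 4.0 and 5.7 against 7.3, 7.9 and 15.9 CPM. Without the block, its value of -1.24 moved to -0.78 without replicate 3 of the unstimulated group. The cap-binding Eif4e3 had -0.85 (adjusted p = 0.0525) and -0.66 (adjusted p = 0.0884).

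The largest log2 fold change among the factors belonged to Eif1ad7. It had 4, 0 and 5 reads in unstimulated and 205, 95 and 60 reads in LPS-treated CD18fl/fl libraries. In cKO cells, it had 16, 0 and 71 reads before and 566, 231 and 365 reads after LPS. The groups did not overlap in either genotype. It passed the filter only through the LPS-treated libraries, so that its difference is a description, and the fitted value depends on the few reads before LPS. The log2 fold change was 5.53 (SE 1.12, adjusted p = 0.0461) in CD18fl/fl without and 5.47 (SE 1.03, adjusted p = 0.0251) with the block, and in cKO cells 4.03 (SE 1.20, adjusted p = 0.111) without and 4.66 (SE 0.94, adjusted p = 0.0164) with the block. On unique reads, which were 4, 0 and 5 against 135, 76 and 31 in CD18fl/fl libraries, the adjusted p without the block was 0.0641. The call was also lost when any 1 library other than replicate 3 of the LPS-treated group was left out (adjusted p between 0.069 and 0.184). After LPS, Eif1ad7 was higher in cKO than in CD18fl/fl cells with the block (log2 fold change 2.06, SE 0.32, adjusted p = 0.0127 with and 0.409 without). Its neighbour Eif1ad10 had 0 reads in all unstimulated CD18fl/fl libraries and 41, 7 and 0 after LPS, and 5, 0 and 23 against 66, 25 and 87 reads in cKO cells, of which 36.2% were unique.

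Whether the response to LPS differed between the genotypes was tested as an interaction on all 12 libraries. None of the 52 factors was called, as was none of 13752 genes (edgeR, 0%), with or without the block, and DESeq2 called none of the factors. At an unadjusted p under 0.05, 0 factors were found without and 2 with the block, where this held for 0.705% and 1.98% of all genes. They were Eif3a (difference of log2 fold changes 0.86, SE 0.27, unadjusted p = 0.00927, adjusted p = 1.0) and Eif5b (0.70, SE 0.25, unadjusted p = 0.0177, adjusted p = 1.0). Eif3a was at 76.6, 96.9 and 137.2 CPM before and 49.1, 44.6 and 90.4 CPM after LPS in CD18fl/fl cells, and at 47.4, 48.2 and 84.2 CPM and 61.4, 52.9 and 66.6 CPM, respectively, in cKO cells. Each genotype comparison shares libraries with each LPS comparison, and fold changes were not set against each other between these kinds. The genotype comparisons share no library with each other, nor do the LPS comparisons, and only the interaction tested how they differ.

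Ratios of TPM within a library do not depend on the scaling between libraries. The ratio of Eif4a2 to Eif4a1, interchangeable helicases in part of their functions, was 0.366, 0.383 and 0.343 in unstimulated CD18fl/fl and 0.897, 1.17 and 0.663 in LPS-treated CD18fl/fl libraries. The cKO ratios were 0.454, 0.647 and 0.484 before and 1.15, 2.69 and 1.33 after LPS. It was thus higher after LPS in every library of both genotypes, replicate 3 included. The ratio of Eif4e to the sum of Eif4ebp1 and Eif4ebp2 was 0.442, 0.399 and 0.488 before and 1.04, 1.11 and 0.872 after LPS in CD18fl/fl libraries. For cKO cells these values were 1.03, 0.949 and 1.30 before and 2.05, 2.44 and 1.27 after LPS. Unstimulated cKO libraries were therefore above all unstimulated CD18fl/fl libraries, and replicate 3 of cKO cells was not higher after LPS. The ratio of Eif3e to Eif3c was 6.35 to 8.58 in the 6 CD18fl/fl libraries and 18.2 to 25.8 in the 6 cKO libraries, in either state. These genes differ in exon length (1506 and 3511 bases). The ratios were chosen after the values had been seen and were not tested.

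**Figure D5:**
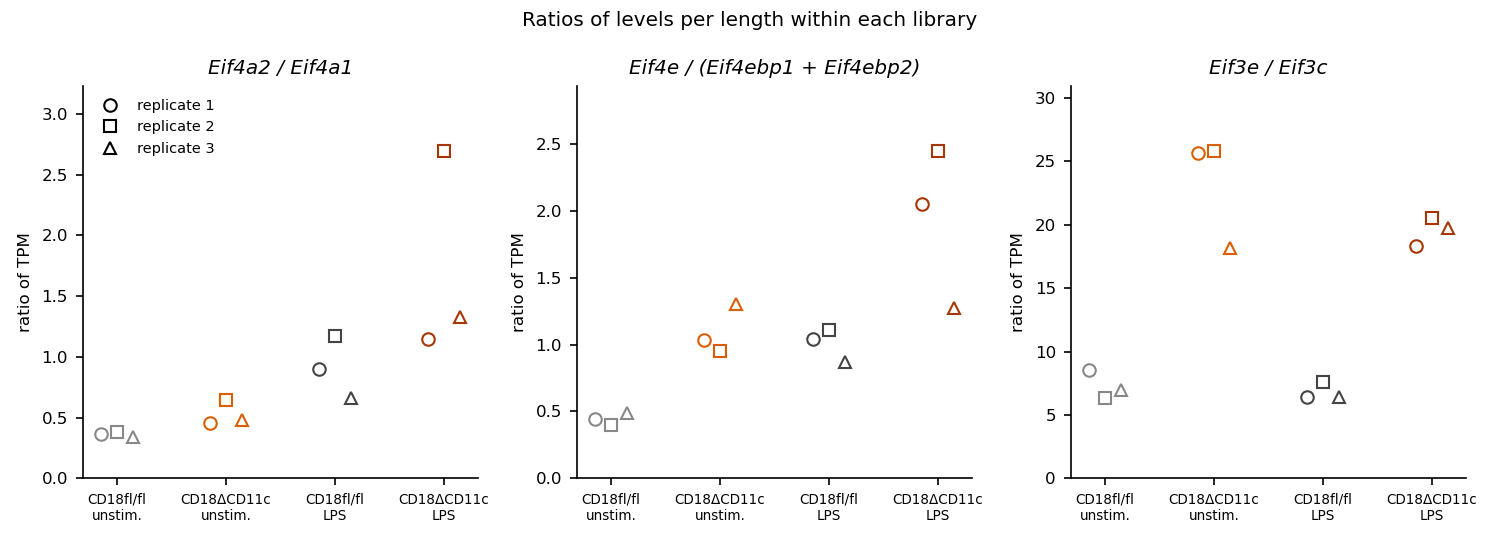
Ratios of TPM within each of the 12 libraries, for Eif4a2 over Eif4a1, Eif4e over the sum of Eif4ebp1 and Eif4ebp2, and Eif3e over Eif3c, by group. Symbols mark the replicate number. The ratio of Eif3e to Eif3c is at most 8.58 in CD18fl/fl and at least 18.2 in cKO libraries.

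Genes that act on the initiation factors moved in part. Counts over the lists that follow stand beside the shares of all genes with the block, which were 12.1% higher and 8.16% lower (genotype, unstimulated), 6.98% and 3.16% (genotype, LPS), 6.33% and 6.43% (LPS, CD18fl/fl), and 10.2% and 9.93% (LPS, cKO). Of 8 genes of eIF2 kinases, phosphatase subunits and their regulators, 2 were higher after LPS in CD18fl/fl cells without the block and 3 with it. These were Eif2ak2, the double-stranded RNA-activated kinase PKR (log2 fold change 1.31, adjusted p = 0.0186 with and 0.141 without), Impact, an inhibitor of the kinase GCN2 (1.21, adjusted p = 0.0255 with and 0.0415 without), and Nck1, an adaptor (1.46, adjusted p = 0.0283 with and 0.0442 without). The same 3 were called in cKO cells with the block, with 1.66, 0.80 and 1.08. Between the genotypes, with the block, Nck1 was higher (1.29, adjusted p = 0.00324) and the phosphatase subunits Ppp1r15a (-0.60, adjusted p = 0.0218) and Ppp1r15b (-0.61, adjusted p = 0.0438) lower in unstimulated cKO cells, and again after LPS (0.88, -0.61 and -0.62).

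Of 21 further initiation genes tested (helpers such as Pabpc1, Ddx3x and Denr), 3 were higher and 3 lower in unstimulated and 2 higher and 1 lower in LPS-treated cKO cells with the block. They included Paip2, an inhibitor of poly(A)-binding protein (0.85, adjusted p = 0.00674), Mcts1, a reinitiation factor (0.86, adjusted p = 0.013), and the eIF4E kinase Mknk2 (-0.86, adjusted p = 0.0107) in unstimulated cells, and Denr, the partner of Mcts1 (0.93, adjusted p = 0.015), and Dap (-0.66, adjusted p = 0.0335) after LPS. In response to LPS, 1 was higher and 2 lower in CD18fl/fl and 3 higher and 4 lower in cKO cells with the block. The other eIF4E kinase Mknk1 fell (log2 fold change -1.36, adjusted p = 0.0438 in CD18fl/fl, and -1.41, adjusted p = 0.045 in cKO cells, without the block). Denr rose (1.15, adjusted p = 0.0299 in CD18fl/fl, and 1.40, adjusted p = 0.0034 in cKO cells, with the block), and the ribosome recycling factor Abce1 fell (-0.93 in both, adjusted p = 0.0374 and 0.011 with the block).

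The elongation list held 9 genes whose symbols start with Eef, not all of which encode elongation factors themselves. Of these genes, 4 were higher and 0 lower in cKO cells in each state with the block, led by Eef1e1 (1.18, adjusted p = 0.00319 unstimulated, and 1.43, adjusted p = 0.00641 after LPS), Eef1b2 (1.11 and 1.10) and Eef1d (0.85 and 0.83). After LPS, 2 were lower in CD18fl/fl and 5 in cKO cells and 0 higher, among them the translocase Eef2 (-1.61, adjusted p = 0.0151, and -1.20, adjusted p = 0.00547) and its kinase Eef2k (-3.48, adjusted p = 0.0228, and -2.25, adjusted p = 0.0242), and in cKO cells Eef1g (-0.91, adjusted p = 0.0122). Of 20 mTORC1 genes, 4 were higher and 2 lower in unstimulated cKO cells and 3 higher and 2 lower after LPS. Lamtor5 (1.20 and 0.88), Rps6 (0.86 and 0.78) and Lamtor3 (0.93 and 0.85) led in both, and with the length offset Lamtor5 alone kept an adjusted p under 0.05, in unstimulated cells (0.0388). In response to LPS, 1 rose and 2 fell in CD18fl/fl and 3 rose and 2 fell in cKO cells. Sesn1 fell (-1.55, adjusted p = 0.0256, and -1.42, adjusted p = 0.0246), the mTORC1 inhibitor Ddit4 rose (1.75, adjusted p = 0.0365, and 1.52, adjusted p = 0.00581), Lamtor4 fell in CD18fl/fl cells (-0.99, adjusted p = 0.0329) and Mtor rose in cKO cells (0.85, adjusted p = 0.0234).

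Of 20 cytosolic tRNA synthetase genes, 4 were lower and 0 higher after LPS in CD18fl/fl and 7 lower and 0 higher in cKO cells with the block, and 19 and 18 of them had a negative log2 fold change without it, where 49.2% and 49.1% of all genes were positive. Iars (-1.66, adjusted p = 0.0113, and -2.31, adjusted p = 0.00652), Farsb (-1.60, adjusted p = 0.0121, and -1.66, adjusted p = 0.00778) and Vars (-2.20, adjusted p = 0.0219, and -1.85, adjusted p = 0.00377) led both. Between the genotypes, 1 was higher and 3 lower in unstimulated cells, led by Aars (-0.63, adjusted p = 0.0199), Eprs (-0.90, adjusted p = 0.0266) and Wars (-0.61, adjusted p = 0.0299), and 1 was higher and 0 lower after LPS, namely Dars (0.71, adjusted p = 0.0291). Of 5 termination genes, Etf1 was higher in unstimulated cKO cells (0.57, adjusted p = 0.0336).

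mRNAs of many translation factors start with a run of pyrimidines (the TOP motif), through which mTORC1 controls their translation. Promoter sequences (RefSeq, GRCm38.p6, 250 bases before to 50 after the start) were available for 39 of the 68 genes. A run of at least 10 C or T that includes the annotated start was found in 4 of the 39 (10.3%), against 2.81% of 27025 gene symbols in the table. Of the genes that passed the test with the block, it was present in Eif3f and Eif3l, both lower after LPS in cKO cells, and in none of those that differed between the genotypes and had a promoter sequence (11 of the 15 higher and the 6 lower ones in unstimulated cells, and 7 of the 10 higher and the 1 lower after LPS). The search depends on the annotated start, and a run beside it was not counted. Of the factors listed as TOP genes (Eif3a, Eif3e, Eif3f, Eif3h and Eif4b), only Eif3f was found by it. A gene without a run in this search may therefore still carry the motif. The windows of the 4 genes with a run, from 20 bases before the start, are shown with the run in capitals, to let the starts be compared.
Eif3f, chr7:108934395-108934424, + strand: gctcttctgttctaggCTCTCTCTCTTTCT
Eif3l, chr15:79075203-79075232, + strand: agcaggcgcggagTTCTTCTTCCgctctct
Eif2s3x, chrX:94212642-94212671, - strand: ggcggctgccgagcaTTTTCCTTTTCTCTC
Eif2b5, chr16:20498797-20498826, + strand: gcaTTCCTTCCTCTTTCTCTCCCTgcaact

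Among promoter motifs, CCGGAAG (the core bound by ETS family factors) occurred on either strand in 15 of the 39 genes (38.5%) against 9.93% of all symbols, and CACGTG (the E-box bound by Myc and its relatives) in 10 of the 39 (25.6%) against 8.09%. TGACGTCA (cyclic AMP response element), TGATGCAA (bound by Atf4) and an NF-κB site were in 0 of the 39, against 2.03%, 1.03% and 0.466%. Motifs were searched by letter, and these shares do not take the expression of the genes in the background into account. Of the 15 factors higher in unstimulated cKO cells, 11 had a promoter sequence, of which 5 held CCGGAAG and 3 CACGTG. Of the 6 lower factors, 1 held CCGGAAG and 2 CACGTG. Windows of 30 bases are shown for some of the factors called higher, with the motif (or its reverse complement) in capitals. They were chosen for holding a motif, not for the size of their difference. Eif2s1 and Eif3e, which lead the genotype comparison with Eif3m, are not among the genes with either motif. Eif1b and Eif3k were no longer called with the length offset.
Eif3m, CCGGAAG, chr2:105017065-105017094, - strand: tctgtggctgacCCGGAAGcggttgtgcgt
Eif4e2, CCGGAAG, chr1:87213904-87213933, + strand: ctcgccagccaaCCGGAAGtagccgggccc
Eif1b, CCGGAAG, chr9:120492444-120492473, + strand: tcgccgttgcacCCGGAAGcgcctccgccc
Eif1ax, CCGGAAG, chrX:159371954-159371983, + strand: ccctcccgccccCTTCCGGacgccggaggc
Eif4e, CACGTG, chr3:138527192-138527221, + strand: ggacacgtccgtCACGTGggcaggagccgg
Eif3k, CACGTG, chr7:28981915-28981944, - strand: ctggaaggaaatCACGTGgtagacaaaaaa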

How the data were processed

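MHCII+ BMDCs of 4 groups with 3 libraries each were analysed. Poly(A)-selected libraries were sequenced to 59-base single-end reads, which the authors mapped and counted with CLC Genomics Workbench at its defaults. The study's methods name GRCm39 as the genome and the submitters' processing notes GRCm38. Gene positions in the tables fit GRCm39. The authors deposited raw counts per gene (total gene reads and, apart from multiply mapped ones, unique gene reads) and TPM, with 1 table per library. Libraries were amplified by 15 PCR cycles without molecular identifiers, so a floor of 3 reads covers counting error only.

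Total gene reads were tested with edgeR 4.0.16 in R 4.3.3 by the quasi-likelihood test on the 6 libraries compared (12 for the interaction), after TMM normalization and edgeR's filter on low counts (minimum 10), with Benjamini-Hochberg adjustment over all genes and a threshold of 0.05. The standard error is the log2 fold change divided by the square root of F. Same-numbered libraries deviated together from their group means across genes (r between 0.261 and 0.743 in all 12 pairs, against -0.627 to -0.339 for replicate 3 with replicate 1 or 2). Deviations cancel within a group for each gene, so that the negative values follow from the positive ones of replicate 3 and are no separate evidence. Replicates 1 and 2 of different groups also correlated (r between 0.18 and 0.369), and replicate 2 of unstimulated CD18fl/fl more with LPS-treated replicate 1 (0.284) than 2 (0.261), so that mainly replicate 3 stands apart. The numbers come from the library titles, and the sources used here do not say what they mark. The block is therefore given beside results it changes. Alternatives were a replicate block, a length offset (lowess, span 0.3), DESeq2 1.42.0, edgeR on 12 libraries, RLE factors, library size scaling, no filter, unique reads and leaving out each library. Replicates 1 and 2 alone, combinations with the block and the summed Eif3j reads were chosen later, after seeing the data. The procedures were tested on simulated data.

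The genes and lists were chosen with earlier results of these data known. Genes named with values were up to 8 per direction and comparison with the smallest p, the eIF4E-binding proteins and paralogs, the 10 highest and 5 lowest levels, those under the filter, those with an unadjusted interaction p under 0.05, and up to 3 called genes per pathway list.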

Additional observations from a re-analysis of the deposited data

How the results depend on the processing

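With the replicate block, the factors called higher and lower numbered 15 and 6 (genotype, unstimulated), 10 and 1 (genotype, LPS), 1 and 1 (LPS, CD18fl/fl), and 3 and 6 (LPS, cKO), against 0 and 0, 0 and 0, 1 and 0, and 0 and 1 without it. In the same order, the length offset with the block gave 12 and 3, 10 and 0, 1 and 1, and 3 and 6, DESeq2 6 and 0, 2 and 0, 2 and 3, and 2 and 3, DESeq2 with the block 17 and 9, 15 and 3, 5 and 7, and 6 and 7, and unique reads with the block 15 and 6, 11 and 1, 1 and 2, and 3 and 6 (over all genes 1573 and 1049 of 12669, 911 and 456 of 12225, 835 and 845 of 12516, and 1310 and 1291 of 12484). Library size scaling with the block gave 8 and 16, 8 and 10, 1 and 8, and 2 and 16. Replicates 1 and 2 alone gave 12 and 5, 3 and 0, 14 and 13, and 4 and 4, and with the block 18 and 8, 9 and 1, 14 and 13, and 9 and 9. In CD18fl/fl cells after LPS, library size scaling gave 0 higher and 1 lower (143 and 304 of 12744 genes), unique reads 0 higher (260 of 12516), and edgeR on 12 libraries 3 lower (500 of 13752). In cKO cells after LPS, no filter gave 1 higher and 0 lower (436 and 369 of 19186), and edgeR on 12 libraries 3 lower (470 of 13752). With 1 library left out, counts ranged from 0 to 8 in either direction for LPS in CD18fl/fl, from 0 to 1 higher and from 0 to 3 lower for LPS in cKO cells, and were 0 between the genotypes and in the interaction. The interaction called 0 factors under each alternative run. The cause of these differences was not tested.

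Of 816 recomputed values of the 43 called factors and comparisons, 1 changed direction, namely Eif4g3 between the genotypes after LPS (from -1.78 without replicate 3 of the cKO group to 0.069 without replicate 3 of the CD18fl/fl group). At these depths, genes with few reads such as Eif1ad7, Eif1ad8, Eif1ad10 and Eif4ebp3 could not be compared reliably.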
